A study of Arabidopsis thaliana with 12 samples.

Results

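Whole seedlings of the *Atg3bp1* mutant and of WT, the Col-0 accession of Arabidopsis thaliana, were compared 24 h after treatment with *Pst hrcC-*, a Pseudomonas syringae pv. tomato DC3000 strain without a working type III secretion system. The comparison takes 6 of the 12 RNA-seq libraries of the series, 3 labelled *Atg3bp1* hrcC and 3 labelled WT hrcC, and was chosen by these labels and not by any measured value. All seedlings were 14 d old and grown on MS medium, both treated groups received the same bacteria, and the remaining 6 libraries are mock-treated seedlings, 3 labelled *Atg3bp1* and 3 labelled WT. The mutant is a single T-DNA insertion allele, *Atg3bp1-1*, with the insertion placed by the study inside the coding sequence, and each library mixes shoots and roots of whole seedlings. The comparison asks which genes differ between the genotypes once bacteria are present.

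AtG3BP1 belongs to a family of 8 Arabidopsis proteins that join an NTF2-like domain to an RNA recognition motif, and its human counterpart G3BP1 is a core protein of stress granules, the cytoplasmic assemblies of RNA and protein that form when translation is stalled. Plants sense conserved bacterial molecules through receptor kinases at the cell surface. Calcium influx, MAP kinase activation, WRKY and NAC transcription factors and salicylic acid (SA) then drive the expression of defence genes, and *Pst hrcC-* reaches this layer because it delivers no effectors that would suppress it.

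Values are FPKM, the fragments assigned to a gene relative to its transcript length and to the mapped fragments of the library. Fold changes are on the log2(FPKM + 1) scale after the libraries were brought to a common upper quartile, with the standard error (SE) of a limma model over all 12 libraries. This scale understates the change of genes with low FPKM. A gene was called when its Benjamini-Hochberg adjusted limma p across 17158 genes tested was at most 0.05 and its difference at least 2-fold. The labels only number the 3 libraries of a group, and the methods call them biological replicates from separate experiments.

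The gene that the mutation targets goes against its label. *AtG3BP1* (AT5G48650, chromosome 5, 19726672 to 19729764) was listed at 18.4, 16.0 and 12.5 FPKM in the 3 libraries labelled *Atg3bp1* hrcC, against 0.426, 0.354 and 0.311 FPKM in the 3 labelled WT hrcC. The same held in the mock libraries, with 16.6, 13.5 and 11.4 FPKM under the label *Atg3bp1* and 0.354, 0.0179 and 0.221 FPKM under the label WT. The transcript of the mutated gene was thus about 42.9 times as high under the mutant label after *Pst hrcC-*, with no overlap. Every direction given below is therefore a direction between labels. FPKM sums the whole gene, so transcript before and after the insertion is not told apart. Coding exon 5 is shown because this gene leads the comparison and because the stated insertion site falls in it when counted along the coding sequence. It lies on the plus strand of TAIR10.1 at chr5:19728485-19728704 (RefSeq), and the capitals mark the codon at the insertion site.

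*AtG3BP1* coding exon 5: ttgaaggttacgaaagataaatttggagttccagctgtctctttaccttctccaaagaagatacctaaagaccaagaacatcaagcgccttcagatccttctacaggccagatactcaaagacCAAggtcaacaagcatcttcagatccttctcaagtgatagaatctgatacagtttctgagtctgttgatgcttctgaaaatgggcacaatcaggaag

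The libraries differed among themselves. Read depth is unknown, because the table holds FPKM only. Of the listed genes, 7526 stood at 0 in WT hrcC replicate 1, against 4935 to 6579 in the other 11 libraries, and the scaling factor of that library was the highest. Mean correlations within the group were 0.964 to 0.969 for the libraries labelled *Atg3bp1* hrcC and 0.908 to 0.941 for those labelled WT hrcC. The locus AT2G01021 took 5.73%, 20.3% and 31.6% of all FPKM in the libraries labelled *Atg3bp1* hrcC, and 6.88%, 8.51% and 7.02% in those labelled WT hrcC. Plastid-encoded genes summed to 3357, 1321 and 4563 FPKM under the label *Atg3bp1*, and to 16968, 1018 and 2756 FPKM under the label WT, where WT hrcC replicate 1 stands far above the others. The part of these features in the results was not tested. Values without WT hrcC replicate 1 stand beside some of the gene lists and genes that it moved. Where no such value is given, that library may still have moved the result.

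Few genes separated the genotypes after bacteria. Of the 17158 tested genes, 1 was called higher in the libraries labelled *Atg3bp1* (0.00583%), *AtG3BP1* itself, and 1 was called lower (0.00583%), *AK-HSDH II*. The next smallest adjusted p was 0.0818, so every other gene below is ranked and not called. At an unadjusted limma p of at most 0.05, 929 genes (5.41%) passed, near the share that this threshold lets through when no gene differs. With a 2-fold difference added, 96 genes were higher (0.56%) and 16 lower (0.0933%) under the label *Atg3bp1*. Of these, 68 higher and 13 lower genes had all 3 libraries labelled *Atg3bp1* outside the range of the 3 labelled WT, and they are called the ranked genes here. Over all tested genes such a separation of deposited FPKM was found for 2.37% in the higher and 10.6% in the lower direction, on values whose median over all genes was -0.151 before rescaling. The log2 fold change lay above 0 for 7905 tested genes (46.1%) and below 0 for 9243. These are the base for counts of list members above or below 0.

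**Figure D1:**
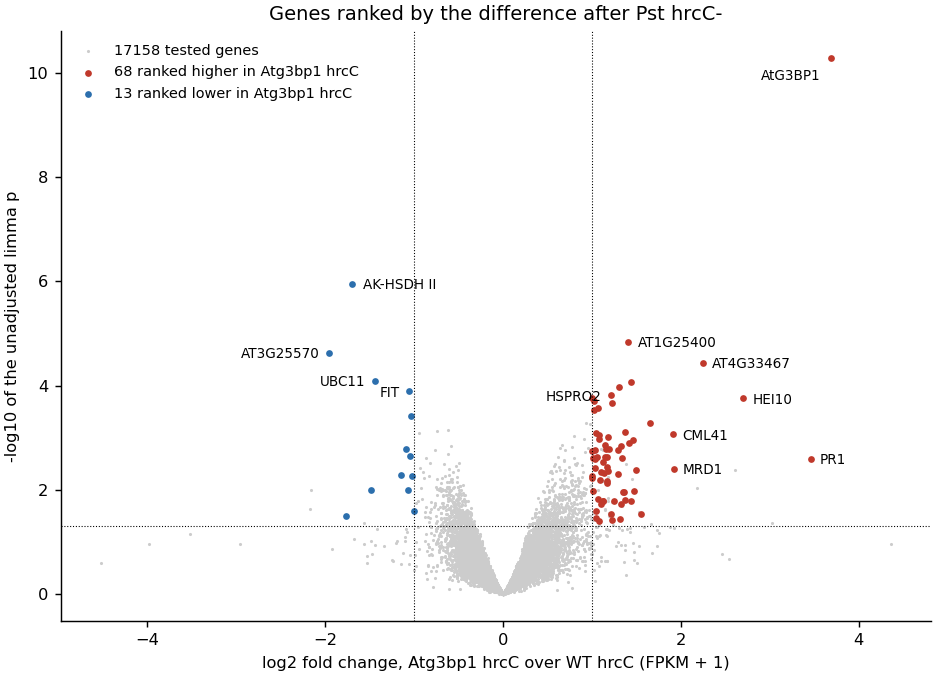
Each point is 1 of 17158 tested genes, with the log2 fold change of *Atg3bp1* hrcC over WT hrcC on the x axis and -log10 of the unadjusted limma p on the y axis; red points are the 68 ranked higher and blue points the 13 ranked lower genes, and dotted lines mark 2-fold and p of 0.05. *AtG3BP1* at 3.69 and *AK-HSDH II* at -1.70 stand above all others, and *AT1G25400* follows at 1.41.

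On the log2(FPKM + 1) scale the interval of most genes was narrow. As this scale understates the change of genes with low FPKM, an interval within 2-fold does not bound their FPKM ratio. *SLAC1*, an anion channel gene, had an interval of -0.95 to -0.16 and a ratio of mean FPKM of 0.401. The 95% interval of the log2 fold change lay within 2-fold in both directions for 14091 genes, 82.1% of those tested, with a median width of 0.487 to either side. For the other genes the interval reaches 2-fold or more. Without WT hrcC replicate 1 the called genes were 1 higher and 2 lower, the added one being the nitrate reductase gene *NIA1*, and 42 of the 96 higher and 8 of the 16 lower genes stayed past the unadjusted threshold. WT hrcC replicate 1 was the lowest of the WT libraries for 39 of the 68 ranked higher genes, 57.4%, against 30.0% of all tested genes. It was the highest for 9 of the 13 ranked lower genes, 69.2%, against 53.9% of all tested genes.

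The log2 fold change of *AtG3BP1* was 3.69 (SE 0.17, adjusted p = 8.88e-07 in limma). Without WT hrcC replicate 1 it was 3.68 (adjusted p = 1.17e-05). The value in mock was 3.68 (adjusted p = 9.31e-07), and the interaction of genotype label and treatment was 0.01 (SE 0.24). The difference was thus already present in mock. Of the 20 listed genes around it, 10 on each side, 12 were tested and their log2 fold changes ran from -0.40 to 0.20 with a median of 0.04. The nearest, the cyclin-family gene AT5G48640 and the RING/U-box gene AT5G48655, had -0.17 (SE 0.31) and -0.02 (SE 0.22). The high value was therefore limited to *AtG3BP1* among the tested genes of this stretch.

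The other tested members of the AtG3BP family had log2 fold changes between -0.50 and 0.29. Of the 7 tested members of 8, *AtG3BP1* was called, and 4 had a positive and 3 a negative log2 fold change. The median was 0.05 (-0.01 without WT hrcC replicate 1) against -0.02 for all tested genes. *AtG3BP1* itself is part of these counts and of the median. The deposited FPKM of 3 members were lower without overlap under the label *Atg3bp1*, a separation that 10.6% of all tested genes had. The lowest was AT5G43960, which had 3.74, 3.24 and 2.66 FPKM under the label *Atg3bp1* and 7.33, 3.98 and 5.50 FPKM under the label WT, a log2 fold change of -0.50 (SE 0.16, adjusted p = 0.877 in limma). In mock it had -0.66 (adjusted p = 0.0668 in limma), also without overlap. Of the 3 members lower in deposited FPKM, AT1G13730 (-0.21, SE 0.16) overlaps between the labels once divided by the scaling factors. It had 5.45 FPKM in *Atg3bp1* hrcC replicate 3 (factor 0.866) and 5.59 FPKM in WT hrcC replicate 3 (factor 1.01). AT2G03640 had the largest positive value of the other members, 0.29 (SE 0.19). AT3G07250 was below 0.3 FPKM in all 6 libraries and was not tested. Among 13 other RNA-binding proteins of plant stress granules, such as the oligouridylate-binding UBP1 proteins and the poly(A)-binding proteins, none reached 2-fold at an unadjusted p of 0.05. Their median was -0.14, and 12 of the 13 had a 95% interval within 2-fold. *PAB4*, a poly(A)-binding protein, had the smallest p of them at -0.38 (SE 0.21, adjusted p = 0.932).

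*AK-HSDH II* (AT4G19710, chromosome 4, 10724814 to 10729768) encodes a bifunctional aspartate kinase and homoserine dehydrogenase, an enzyme that feeds aspartate into the synthesis of threonine, methionine, isoleucine and lysine. It had 1.11, 1.38 and 0.884 FPKM in the libraries labelled *Atg3bp1* hrcC, against 7.23, 6.03 and 6.04 FPKM in those labelled WT hrcC. The groups stand well apart, and the log2 fold change was -1.70 (SE 0.19, adjusted p = 0.00962 in limma). In mock it was -1.86 (adjusted p = 0.00194), from 1.89, 1.44 and 1.18 FPKM under the label *Atg3bp1* and 10.4, 8.17 and 7.5 FPKM under the label WT. The interaction was 0.15 (SE 0.27), so this difference too was present without bacteria. Its call was lost without WT hrcC replicate 2 (adjusted p = 0.0529), without *Atg3bp1* hrcC replicate 1 (0.0671) and without *Atg3bp1* hrcC replicate 3 (0.109), each time with a log2 fold change between -1.65 and -1.69.

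The rest of the aspartate pathway did not follow *AK-HSDH II* past the threshold. Of 21 tested genes for the synthesis of aspartate-derived amino acids, *AK-HSDH II* was the only one called or at 2-fold with an unadjusted p of at most 0.05, and the median was -0.13. Its paralog *AK-HSDH I* had -0.21 and the lysine-sensitive aspartate kinase genes *AK1* and *AK3* had -0.07 and -0.81. Reads between the paralogs could be shared, since the authors kept 1 placement per read. Of 7 tested genes for the breakdown of these amino acids and for asparagine 5 lay above 0, with a median of 0.44, and of 0.23 without WT hrcC replicate 1. Among them *BCAT2*, which starts the degradation of branched-chain amino acids, had 54.3, 27.8 and 52.0 FPKM under the label *Atg3bp1* and 22.7, 7.15 and 23.1 FPKM under the label WT. Its log2 fold change was 1.55 (SE 0.63, adjusted p = 0.904 in limma) and 2.86 in mock. The methionine gamma-lyase gene *MGL* had 0.77, the lysine-degrading *LKR/SDH* 0.44 and the asparagine synthetase gene *ASN2* -0.45, none past the test.

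Around *AK-HSDH II*, 9 of the 20 nearest listed genes were tested. They include the iron transporter gene *IRT1* and its paralog *IRT2*, which lie before *AK-HSDH II* on the chromosome. *IRT1* had 7.03, 10.2 and 18 FPKM under the label *Atg3bp1* and 64.6, 61.3 and 9.93 FPKM under the label WT, so WT hrcC replicate 3 lies among the mutant-labelled libraries. Its log2 fold change was -1.42 (SE 0.67, adjusted p = 0.904). *NPR4*, an SA receptor gene, had 0.20 and *ChiC*, a chitinase gene, 0.78. The nearest tested gene, AT4G19700, had 0.15 (SE 0.29).

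Another locus stood nearly as far apart, without being called. *HEI10* (AT1G53490, chromosome 1, 19963267 to 19966952) encodes a RING-type protein that promotes meiotic crossovers. It was listed at 6.65, 6.79 and 5.66 FPKM in the libraries labelled *Atg3bp1* hrcC and at 0.0446, 0.240 and 0.302 FPKM in those labelled WT hrcC, with no overlap and a ratio of mean FPKM of 32.6. The log2 fold change was 2.70 (SE 0.51, adjusted p = 0.251 in limma). In mock, *HEI10* had 9.92, 7.12 and 7.02 FPKM under the label *Atg3bp1* and 5.07, 0.106 and 0.268 FPKM under the label WT. WT mock replicate 1 is thus the only library labelled WT in which *HEI10* was high, and the spread it adds enters the shared error. With the hrcC libraries fitted alone the adjusted p was 0.0024, and without WT mock replicate 1 it was 2.38e-05.

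*MRD1* (AT1G53480, chromosome 1, 19963047 to 19964712), a gene known for low expression in the methionine-overaccumulating mutant *mto1*, lies on the opposite strand and overlaps *HEI10*. It had 5.59, 1.99 and 3.93 FPKM under the label *Atg3bp1* and 0.929, 0 and 0.171 FPKM under the label WT after bacteria. WT mock replicate 1 stood out for *MRD1* as well, where mock libraries had 2.46, 4.74 and 5.13 FPKM under the label *Atg3bp1* and 3.47, 0 and 0.0122 FPKM under the label WT. The log2 fold change after *Pst hrcC-* was 1.92 (SE 0.54, adjusted p = 0.805 in limma). The sources used here do not say that strand was used in counting, so reads of the overlapping pair cannot be told apart. The flanking genes *MSL4*, a mechanosensitive channel gene, and *MUM4*, a mucilage synthesis gene, had -0.12 (SE 0.18) and -0.22 (SE 0.27). This locus and its neighbours were picked after their values had been seen.

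**Figure D2:**
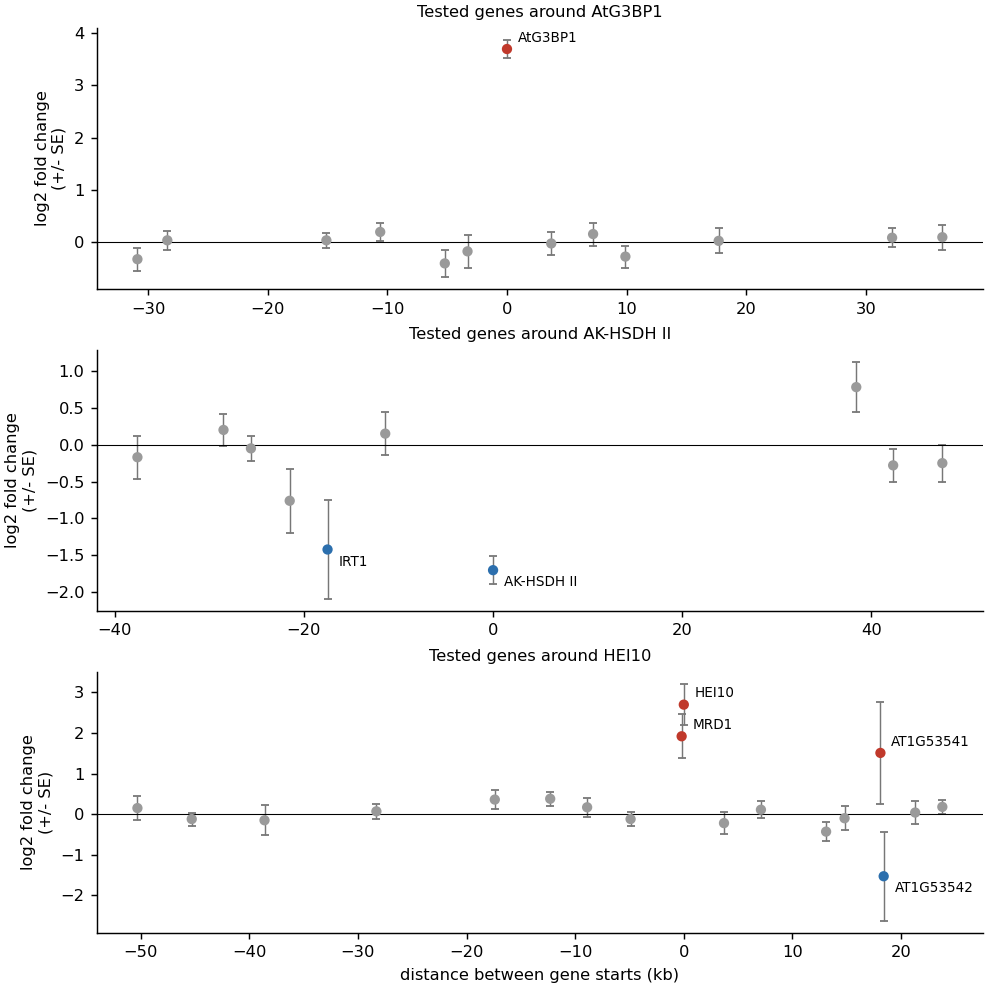
Log2 fold change (*Atg3bp1* hrcC over WT hrcC, with its SE as error bar) of tested genes against the distance of their start from that of *AtG3BP1* (top), *AK-HSDH II* (middle) and *HEI10* (bottom) in kb; red and blue points are 2-fold or more higher and lower. *AtG3BP1* and *AK-HSDH II* stand alone but for *IRT1* at -1.42, and *HEI10* (2.70) and *MRD1* (1.92) lie side by side, while AT1G53541 and AT1G53542 have SEs above 1.

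Among the remaining genes the smallest adjusted p belonged to *AT1G25400*, an uncharacterized protein gene. It had 55.7, 38.8 and 57.6 FPKM in the libraries labelled *Atg3bp1* hrcC, against 23.9, 19.2 and 18.2 FPKM in those labelled WT hrcC, a log2 fold change of 1.41 (SE 0.20, adjusted p = 0.0818 in limma). In mock the difference was larger, at 2.73 (adjusted p = 0.000104), with 30.4, 23.8 and 25.3 FPKM under the label *Atg3bp1* and 2.78, 3.20 and 4.52 FPKM under the label WT. The labels did not overlap in either treatment, and the gene was called in mock only. The interaction was -1.32 (SE 0.29, adjusted p = 0.991).

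AT3G25570, a gene of the S-adenosylmethionine decarboxylase family, whose enzymes provide the aminopropyl donor for polyamines, came next. It had 1.39, 2.1 and 0.836 FPKM under the label *Atg3bp1* and 14.7, 6.48 and 7.5 FPKM under the label WT, a log2 fold change of -1.96 (SE 0.29, adjusted p = 0.1 in limma). The uncharacterized *AT4G33467* had 10, 5.82 and 4.92 FPKM under the label *Atg3bp1* and 0, 0.712 and 1.77 FPKM under the label WT, with 2.25 (SE 0.35, adjusted p = 0.125). *UBC11*, a ubiquitin-conjugating enzyme gene, was low under the label *Atg3bp1* with 4.70, 5.91 and 4.40 FPKM, against 26.6, 11.4 and 15.6 FPKM under the label WT (-1.44, SE 0.25, adjusted p = 0.208). It was called lower in mock at -1.78 (adjusted p = 0.0138). Without WT hrcC replicate 1 the log2 fold change after bacteria was -1.71 for AT3G25570, 1.87 for *AT4G33467* and -1.22 for *UBC11*.

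*HSPRO2*, a gene for basal resistance to P. syringae that also interacts with the energy-sensing SnRK1 kinase, ranked among the 12 higher genes with the smallest p. It had 141, 97.3 and 105 FPKM in the libraries labelled *Atg3bp1* hrcC and 46.1, 48.8 and 69.6 FPKM in those labelled WT hrcC, with 1.21 (SE 0.22, adjusted p = 0.251 in limma). It was called in mock at 1.71 (adjusted p = 0.0107). The same rule named the fucosyltransferase gene *FUT4* at 1.00 (SE 0.19), the arabinogalactan protein gene *AGP5* at 1.22 (SE 0.23), and the copper amine oxidase gene AT4G12290 at 1.02 (SE 0.19). *AGP5* had 11.6, 10.8 and 10.2 FPKM under the label *Atg3bp1* and 5.05, 5.53 and 3.48 FPKM under the label WT. The ATPase-domain gene AT3G28540 had 1.3 (SE 0.23) and the PLATZ factor gene AT1G76590 had 1.07 (SE 0.21). None of these 6 genes passed the adjusted threshold after bacteria, where their adjusted p lay between 0.235 and 0.312.

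**Figure D3:**
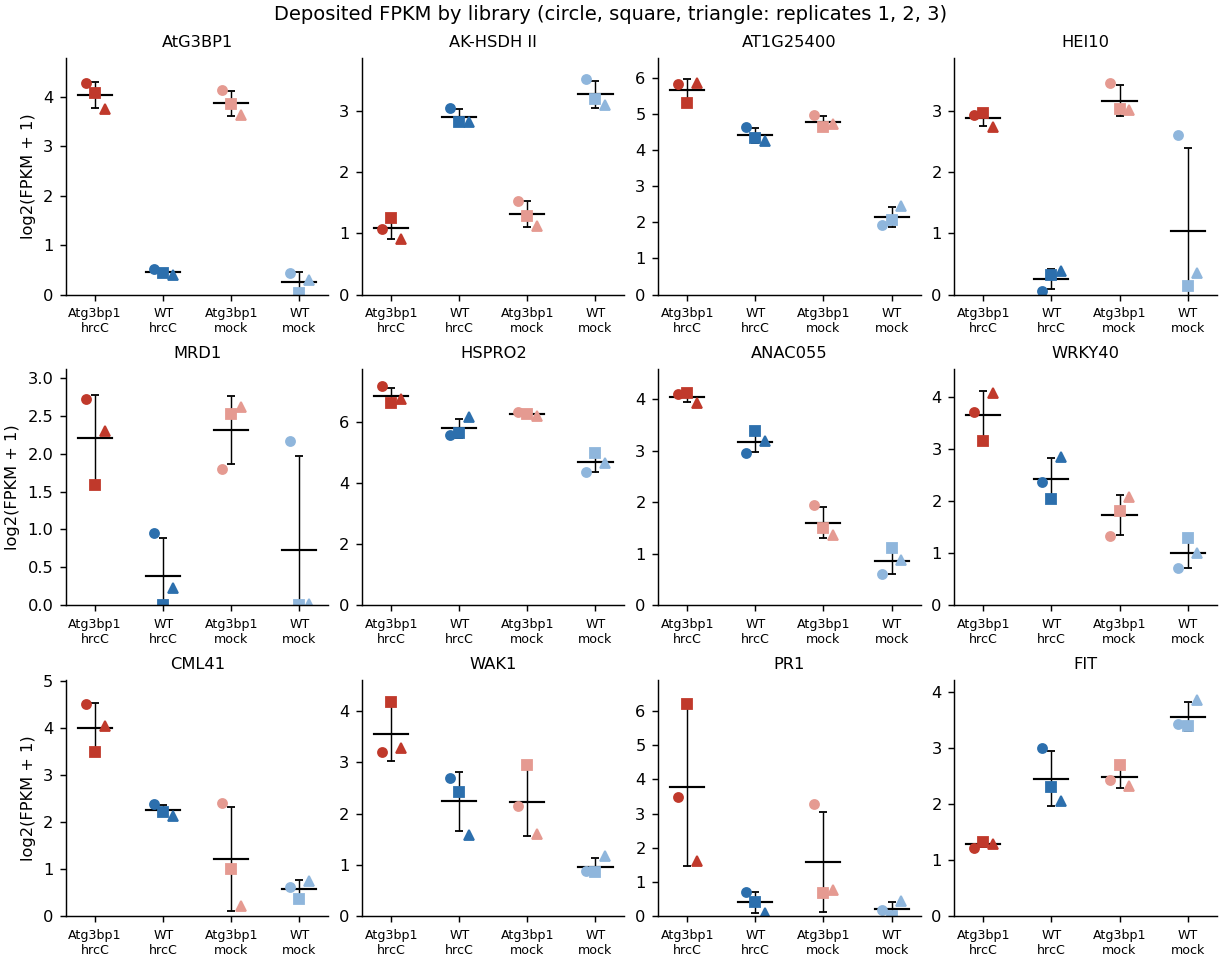
Deposited values of 12 genes as log2(FPKM + 1) in each library, with circle, square and triangle for replicates 1, 2 and 3; from left to right *Atg3bp1* hrcC (red), WT hrcC (blue), *Atg3bp1* mock (light red) and WT mock (light blue), with the mean as a line and the SD as a bar (n = 3). *AtG3BP1*, *AK-HSDH II* and *HEI10* separate the labels in both treatments, although *HEI10* is high in WT mock replicate 1. *MRD1* overlaps in mock through that library, and *PR1* spreads from 2.06 to 73.8 FPKM among the libraries labelled *Atg3bp1* hrcC.

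Stress NAC factors, which promote senescence and abscisic acid and jasmonate responses, all lay above 0. Of 6 tested, 3 reached 2-fold at an unadjusted p of 0.05 and none was called, with a median log2 fold change of 0.83 against -0.02 for all tested genes. *ANAC055* had 16.0, 16.4 and 14.2 FPKM in the libraries labelled *Atg3bp1* hrcC and 6.79, 9.37 and 8.05 FPKM in those labelled WT hrcC, with 1.02 (SE 0.20, adjusted p = 0.320 in limma). *ANAC019* had 1.39 (SE 0.38) and *NAP*, a senescence regulator, 1.1 (SE 0.27), both with libraries that overlap between the labels. Leaving out WT hrcC replicate 1, the median of the 6 was 0.61.

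Of the ranked higher genes, 6 with a calcium-related annotation are given next, put together after their values had been seen and not tested as a group. *CML41*, a calmodulin-like protein at plasmodesmata, had 21.9, 10.2 and 15.5 FPKM under the label *Atg3bp1* and 4.22, 3.66 and 3.41 FPKM under the label WT, with 1.91 (SE 0.43, adjusted p = 0.567 in limma). *CML38* had 14.4, 5.99 and 10.6 FPKM under the label *Atg3bp1* and 3.52, 1.80 and 5.78 FPKM under the label WT, with 1.42 (SE 0.34, adjusted p = 0.616). The EF-hand genes AT5G39670 and AT3G47480 had 1.29 and 1.21, and 1.56 and 1.41 without WT hrcC replicate 1. The calcium exchanger gene *CAX7* had 1.15 and the calcium uniporter gene AT4G36820 1.17, and 0.94 and 0.82 without that library. None of the 6 was called after bacteria or in mock.

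The salicylic acid output genes gave large estimates with wide errors. *PR1*, the standard marker of SA signalling, had 10.2, 73.8 and 2.06 FPKM in the libraries labelled *Atg3bp1* hrcC, against 0.628, 0.339 and 0.0565 FPKM in those labelled WT hrcC. The groups do not overlap, and the ratio of means was 84.1, with the highest value in replicate 2. The log2 fold change was 3.46 (SE 0.91, 95% interval 1.48 to 5.45, adjusted p = 0.701 in limma). *PR2*, a beta-1,3-glucanase gene, had 12.6, 25.3 and 4.35 FPKM under the label *Atg3bp1* and 9.14, 4.64 and 3.82 FPKM under the label WT, with 1.07 (SE 0.42). *PR5*, a thaumatin-like gene, had 13.1, 26.5 and 14.3 FPKM under the label *Atg3bp1* and 4.22, 12.3 and 10.9 FPKM under the label WT, with 1.08 (SE 0.47), and with 0.58 and no longer past the unadjusted threshold when WT hrcC replicate 1 was left out. All 3 were highest in *Atg3bp1* hrcC replicate 2.

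Of the 9 tested SA signalling and response genes, 8 lay above 0, 3 reached 2-fold at an unadjusted p of 0.05, none was called and the median was 0.66. The summed FPKM of the list was 74.5, 161 and 55.5 under the label *Atg3bp1* and 46.3, 43.3 and 41.6 under the label WT. The co-activator gene *NPR1* had 0.54 and the signalling gene *NDR1* 0.66. SA synthesis and its regulators stayed near 0: of 11 tested genes none reached 2-fold at an unadjusted p of 0.05, and the median was 0.11. *ICS1*, the isochorismate synthase of SA synthesis, had 0.11 (SE 0.21), with overlapping labels. *EDS1* had -0.01 (SE 0.18), *PAD4* 0.25 (SE 0.20), the SA exporter gene *EDS5* -0.20 (SE 0.19) and *DMR6*, an SA hydroxylase gene, 0.63 (SE 0.28). The 95% interval lay within 2-fold for 8 of the 11.

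A further list holds SA genes that the study took up after its own analysis of these samples, so it is not treated as independent evidence of a direction. Of its 11 genes 8 were tested, 3 reached 2-fold at an unadjusted p of 0.05, none was called, and the median was 0.38. *WRKY40*, a repressor among the WRKY factors, had 12, 7.90 and 15.9 FPKM under the label *Atg3bp1* and 4.16, 3.08 and 6.22 FPKM under the label WT, with 1.37 (SE 0.31, adjusted p = 0.559 in limma). *AZI1*, a lipid transfer-like protein of systemic resistance, had 240, 92.4 and 116 FPKM under the label *Atg3bp1* and 34.4, 8.99 and 110 FPKM under the label WT, with 2.18 (SE 0.70). WT hrcC replicate 3 thus reaches into the mutant-labelled libraries. *CBP60g*, a regulator of *ICS1*, had 0.51 (SE 0.23). *NIMIN1*, *SARD1* and *WRKY38* were below 1.8 FPKM in all 6 libraries and were not tested.

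A short immunity list also comes from the study and is not treated as independent evidence either. Of its 5 genes 4 were tested, all above 0, 3 at 2-fold with an unadjusted p of at most 0.05 and none called. Besides *WRKY40* and *AZI1* these are *WAK1*, a wall-associated receptor kinase, with 8.26, 17.2 and 8.74 FPKM under the label *Atg3bp1* and 5.49, 4.39 and 2 FPKM under the label WT (1.46, SE 0.34, adjusted p = 0.605 in limma). The defensin-like gene AT3G59930 had 124, 54.0 and 58.9 FPKM under the label *Atg3bp1* and 80.7, 28.8 and 93.0 FPKM under the label WT, with 0.44 (SE 0.51). *WRKY8* stayed below the filter, with 1.87, 1.09 and 0.839 FPKM under the label *Atg3bp1* and 1.41, 0.636 and 0.780 FPKM under the label WT. The labels overlap for both of these genes.

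Early markers of microbe-triggered immunity were mostly above 0. *FRK1*, a receptor kinase gene below the filter, had 2.1, 1.64 and 1.93 FPKM under the label *Atg3bp1* and 0.274, 0.365 and 2.42 FPKM under the label WT, so the highest library is labelled WT. *WRKY29* had 1.89, 1.98 and 2.43 FPKM under the label *Atg3bp1* and 2.07, 3.85 and 2.78 FPKM under the label WT, with -0.21 (SE 0.40), and *MYB51*, a regulator of indole glucosinolates, had 0.59 (SE 0.34), and 0.98 without WT hrcC replicate 1. *WRKY33*, *NHL10* and *PAD3* had 0.74, 0.89 and 0.60, while *WRKY53* had -0.31 and the camalexin gene *CYP71A13* -0.85. Of 10 tested markers, 7 lay above 0 and *PR1* alone reached 2-fold at an unadjusted p of 0.05. The median was 0.59.

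Receptors and their kinases had smaller estimates. Among 12 tested immune receptor and signalling kinase genes 10 lay above 0, with a median of 0.23 (0.13 without WT hrcC replicate 1), and 11 had a 95% interval within 2-fold. *FLS2*, the flagellin receptor, had 0.47, *EFR*, the receptor for elongation factor Tu, 0.43, and *BAK1*, their co-receptor, 0.16. *SOBIR1*, an adaptor kinase of receptor-like proteins, had 19.7, 15.4 and 15.4 FPKM under the label *Atg3bp1* and 6.37, 13.1 and 10.7 FPKM under the label WT, with 0.87 (SE 0.30, adjusted p = 0.885 in limma). Without WT hrcC replicate 1, which is the lowest, it was 0.52. *MPK3*, *MPK6* and *MPK4*, the MAP kinases of this pathway, had 0.31, 0.06 and -0.04.

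Of the 48 tested WRKY factors 33 lay above 0, with a median of 0.18, and *WRKY40* and *WRKY28* reached 2-fold at an unadjusted p of 0.05. That median was 0.05 without WT hrcC replicate 1, where *WRKY28* had 0.72 in place of 1.1. Of the 19 tested cysteine-rich receptor-like kinases 15 lay above 0, with a median of 0.37, and of 0.16 when that library was left out. *CRK13* led them with 3.62, 1.67 and 3.70 FPKM under the label *Atg3bp1* and 0.391, 0.438 and 3.57 FPKM under the label WT (0.98, SE 0.40, and 0.65 without WT hrcC replicate 1). Class III peroxidases, which make and use apoplastic hydrogen peroxide, had a median of 0.07 over 52 tested genes, and of -0.01 without WT hrcC replicate 1. Phi and tau glutathione S-transferases had -0.10 over 37 (-0.22 without that library), and no member of either family reached 2-fold at an unadjusted p of 0.05.

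Ethylene and jasmonate defence outputs, such as the plant defensins, all lay above 0, and *PDF1.1* alone reached 2-fold at an unadjusted p of 0.05. Of 8 tested genes the median was 0.87, and 1.44 without WT hrcC replicate 1, and no 95% interval lay within 2-fold. *PDF1.1*, a defensin gene, had 5.79, 3.12 and 1.63 FPKM under the label *Atg3bp1* and 0.974, 0.837 and 0.670 FPKM under the label WT, with 1.29 (SE 0.32, adjusted p = 0.616 in limma). The jasmonate-responsive *PDF1.2* and its paralog *PDF1.2c*, between which reads can be shared, had 0.76 and 0.99 with unadjusted p above 0.2. Jasmonate synthesis genes had a median of 0.20 over 12 and jasmonate signalling and MYC output genes -0.03 over 17 (-0.08 and -0.12 without WT hrcC replicate 1), with none at 2-fold and an unadjusted p of 0.05. *TAT3*, a tyrosine aminotransferase gene of the jasmonate response, had the smallest p of the signalling genes, with 11.6, 19.4 and 9.78 FPKM under the label *Atg3bp1* and 8.82, 5.34 and 7.70 FPKM under the label WT (0.93, SE 0.20, adjusted p = 0.460).

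RING-type ubiquitin ligase genes were among the ranked higher genes, grouped here after their values had been seen. *ATL8* had 19.5, 20.4 and 18.4 FPKM under the label *Atg3bp1* and 3.78, 12.5 and 6.67 FPKM under the label WT, with 1.5 (SE 0.43). *CNI1*, a ligase of the carbon and nitrogen response, had 1.17, *RING1* 1.16 and *RHA3B* 1.33. The xyloglucan endotransglucosylase gene *TCH4* was listed at 78.8, 101 and 156 FPKM under the label *Atg3bp1* and 26.6, 48.4 and 75.9 FPKM under the label WT (1.36, SE 0.45, adjusted p = 0.885 in limma). Leaving out WT hrcC replicate 1 gave 0.88 for *TCH4* and 0.67 for *RHA3B*. The elongation factor gene AT1G09640 had 81.6, 84.6 and 85.9 FPKM under the label *Atg3bp1* and 40.5, 34.7 and 35.1 FPKM under the label WT, with 1.33 (SE 0.32, adjusted p = 0.616). *HR4*, a homolog of the RPW8 resistance genes, had 1.31 (SE 0.55).

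Most root iron uptake genes had negative values. Of 12 tested, 10 were below 0 and the median was -0.80, against -0.02 for all tested genes. The 3 genes *FIT*, *FRO2* and *CYP82C4* reached 2-fold at an unadjusted p of 0.05, and none was called. None of the 3 met both thresholds when WT hrcC replicate 1 was left out. *FIT* then fell below 2-fold, at -0.87. *FRO2* at -1.19 and *CYP82C4* at -1.70 stayed above 2-fold but were no longer past the unadjusted threshold. *FIT*, the bHLH factor that switches on iron uptake in the root, had 1.33, 1.51 and 1.44 FPKM in the libraries labelled *Atg3bp1* hrcC and 6.97, 3.94 and 3.16 FPKM in those labelled WT hrcC, with -1.06 (SE 0.19, adjusted p = 0.244 in limma). The reductase gene *FRO2* had 1.05, 1.14 and 2.83 FPKM under the label *Atg3bp1* and 14.4, 12.2 and 1.73 FPKM under the label WT, with -1.56 (SE 0.69). *CYP82C4*, an enzyme of the coumarins secreted under iron deficiency, had 0.962, 0.826 and 1.04 FPKM under the label *Atg3bp1* and 7.57, 14.4 and 1.66 FPKM under the label WT, with -1.76 (SE 0.72). WT hrcC replicate 3 was low for all of *IRT1*, *FRO2* and *CYP82C4*.

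The summed deposited FPKM of the iron uptake list was 32.7, 45.7 and 46.2 under the label *Atg3bp1* and 135, 146 and 47.4 under the label WT. Before rescaling the sums of the labels come close but do not overlap. Divided by the scaling factors, 0.866 for *Atg3bp1* hrcC replicate 3 and 1.01 for WT hrcC replicate 3, they do overlap. The median was -0.58 without WT hrcC replicate 1, and -0.99 in mock. The list of iron status signals and stores, with *bHLH38* (-0.84), *bHLH39* (-1.05) and *AT1G47400* (-1.67, and -1.01 without WT hrcC replicate 1), had a median of -0.41, and -0.13 without WT hrcC replicate 1, with none past the test. The iron store genes *FER1*, *FER3* and *FER4* had 0.38, -0.01 and 0.50.

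*NIA1*, 1 of the nitrate reductase genes, had 6.28, 6.88 and 4.44 FPKM under the label *Atg3bp1* and 8.29, 17.0 and 19.6 FPKM under the label WT, with -1.02 (SE 0.30, adjusted p = 0.847 in limma). Without WT hrcC replicate 1 it was -1.46 and was called (adjusted p = 0.0435). The pectin methylesterase gene *PME5* had 8.61, 12.5 and 13.0 FPKM under the label *Atg3bp1* and 30.9, 25.5 and 24.3 FPKM under the label WT, with -1.04 (SE 0.27). The fatty acid desaturase gene AT1G06360 had -1.09 (SE 0.27) and the homeobox-like gene AT5G38300 -1.03 (SE 0.21). Of the weakly expressed genes AT3G57500, AT2G35345 and AT1G52390, the last was listed at 0 in 2 of 3 libraries labelled *Atg3bp1* and at 10.2, 1.09 and 0.858 FPKM under the label WT, and failed the expression filter without WT hrcC replicate 1.

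Sugar starvation and dark-inducible genes all lay above 0, with a median of 0.64 over 9 tested genes after bacteria (0.41 without WT hrcC replicate 1) and 1.48 in mock. *BCAT2* alone reached 2-fold at an unadjusted p of 0.05, and *DIN6*, the asparagine synthetase gene, had 0.69. Alpha-expansins, which loosen the cell wall in growth, had 15 of 17 tested genes below 0 and a median of -0.24, with *EXPA5* at -0.59 (SE 0.27). The growth-related GASA peptides and PRE factors had medians of -0.18 over 5 (-0.28 without WT hrcC replicate 1) and -0.46 over 3, led by *GASA5* at -0.59 and *PRE1* at -0.63. Heat shock genes had 0.53 over 4 and circadian clock genes 0.04 over 9 (0.30 and -0.15 without that library), where *HSP90.1* and *PRR7* had the smallest p at 0.67 and 0.54. None of these lists held a called gene.

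**Figure D4:**
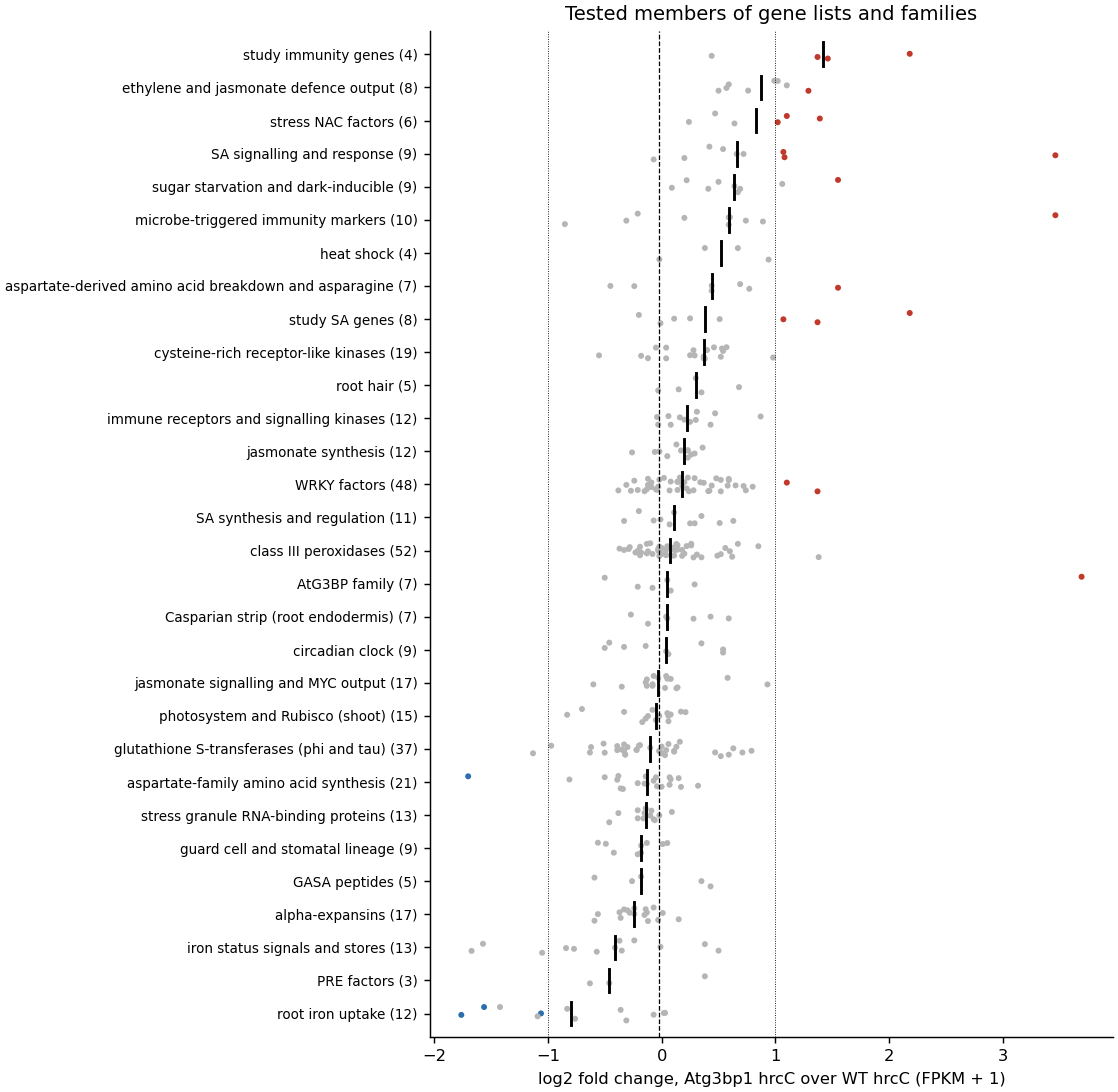
Log2 fold change (*Atg3bp1* hrcC over WT hrcC) of the tested members of each list or family, with the number tested in brackets; black bars are list medians, the dashed line is the median of all tested genes (-0.02), dotted lines mark 2-fold, and red or blue points reach 2-fold at an unadjusted p of 0.05. The stress NAC factors sit to the right with a median of 0.83 and root iron uptake to the left with -0.80, and most other lists straddle 0.

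Cell type markers were checked for a shift in tissue. Photosystem and Rubisco genes, which mark green shoot tissue, summed to between 35713 and 52734 FPKM under the label *Atg3bp1* and to between 42784 and 55063 FPKM under the label WT, with a median log2 fold change of -0.05 over 15 genes (-0.18 without WT hrcC replicate 1). Casparian strip genes of the root endodermis summed to between 19.2 and 35.0 FPKM under the label *Atg3bp1* and to between 19.6 and 31.1 FPKM under the label WT (7 of 8 tested, median 0.05, and 0.10 without that library). Both tissues were thus present in all 6 libraries in overlapping amounts. The root hair list had a median of 0.30 over 5 of 8, and of 0.16 without it. Fewer cells of a type and less RNA per cell cannot be told apart in whole seedlings.

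Guard cell and stomatal lineage genes had a median of -0.18 over 9 of 11 (-0.36 without WT hrcC replicate 1). Their deposited FPKM summed to between 25.4 and 30.2 under the label *Atg3bp1*, against 32.0 to 41.0 under the label WT. These sums do not overlap before rescaling. They do overlap once divided by the scaling factors, which is 1.2 for WT hrcC replicate 1, the lowest sum under the label WT. *SLAC1*, the anion channel that closes stomata, had 0.752, 0.560 and 0.447 FPKM under the label *Atg3bp1* and 1.79, 1.40 and 1.2 FPKM under the label WT, with -0.56 (SE 0.18, adjusted p = 0.877 in limma). Of the seed storage genes *PAP85*, a vicilin-like protein, alone was tested. It had 2.46, 1.75 and 2.73 FPKM under the label *Atg3bp1* and 0, 0.0972 and 0.859 FPKM under the label WT (1.44, SE 0.25, adjusted p = 0.208), and was called in mock at 1.96 (adjusted p = 0.00912). Of the 9 seed genes, 3 were at 0 in all libraries labelled *Atg3bp1* hrcC and 4 in all labelled WT hrcC.

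The mock libraries, which share no sample with the treated ones, gave most ranked genes the same direction. Of the 68 ranked higher genes 67 were above 0 in mock, against 69.1% of all tested genes that lay above 0 after bacteria, and their median was 0.91 in mock and 1.18 after bacteria. Of the 13 ranked lower genes 10 were below 0 in mock, against 69.2%. In mock, 16 of the 68 and 2 of the 13 passed the adjusted threshold with 2-fold, against 0.921% and 0.0583% of all tested genes. Both contrasts take the error of a gene from the same fit over all 12 libraries. Genes ranked by a small p thus tend to have a small error in mock too, so these shares are not independent support. The interaction of genotype label and treatment had a smallest adjusted p of 0.991 over all tested genes, with 755 at an unadjusted p of at most 0.05, so no gene was shown to differ between the genotypes in a way that depended on bacteria.

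Some named genes had most of their difference in 1 condition by estimate. *PR1* had 3.46 after bacteria and 1.41 in mock, *AT4G33467* 2.25 and 0.45, *CML41* 1.91 and 0.67, *ANAC019* 1.39 and -0.09, and the nitrate transporter gene *NRT2.6* 1.47 and 0.01. After bacteria *NRT2.6* had 0.833, 2.46 and 9.06 FPKM under the label *Atg3bp1* and 0.221, 0.818 and 0.603 FPKM under the label WT. The labels are thus barely apart for this weakly expressed gene, and *Atg3bp1* hrcC replicate 3 stands far above the other libraries. *AT1G25400*, *BCAT2* and the berberine bridge-like gene AT1G30730 had more in mock, the last with 1.22 after bacteria (0.71 without WT hrcC replicate 1) and 2.62 in mock. *CDEF1*, a cutinase-type lipase gene, had opposite directions. None of these differences between conditions passed the interaction test.

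**Figure D5:**
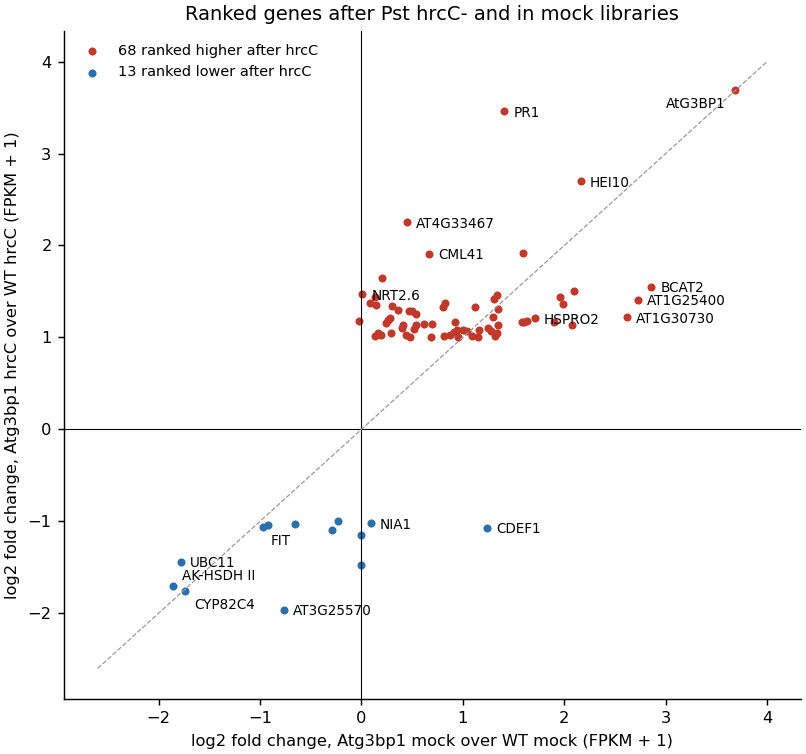
Each point is a ranked gene, with the log2 fold change of *Atg3bp1* mock over WT mock on the x axis and that of *Atg3bp1* hrcC over WT hrcC on the y axis; red points are the 68 ranked higher and blue points the 13 ranked lower genes, and the dashed line marks equal values. *AtG3BP1* and *AK-HSDH II* lie on the line, 67 of 68 red points lie to the right of 0, and *CDEF1* lies to the lower right at 1.24 in mock and -1.07 after bacteria.

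Organelle genes and AT2G01021 mostly had positive values. AT2G01021 had 24548, 99319 and 151596 FPKM in the libraries labelled *Atg3bp1* hrcC and 34000, 36754 and 31296 FPKM in those labelled WT hrcC, a log2 fold change of 1.24 (SE 0.56, adjusted p = 0.904 in limma). Of 42 tested mitochondrial genes 40 lay above 0, with a median of 0.54 (0.37 in mock), and 4 of the 68 ranked higher genes are mitochondrial. Those 4, *ATMG00210*, *ATMG01000*, *ATMG01090* and *ATMG01130* (1.35, and 0.83 without WT hrcC replicate 1), were all highest in *Atg3bp1* hrcC replicate 3, the library with the largest share of AT2G01021. Of 82 tested plastid genes 75 lay above 0, with a median of 0.59 (0.46 in mock), and none is ranked. Mitochondrial genes summed to 497, 360 and 1203 FPKM under the label *Atg3bp1* and to 758, 262 and 373 FPKM under the label WT. These sums overlap between the labels, as do the plastid sums given above.

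The upstream sequence of the ranked genes was searched for the W-box, the element bound by WRKY factors, as TTGACC or TTGACT on either strand in the 250 bases before each gene start of TAIR10.1. It was present before 19 of 64 ranked higher genes with a nuclear position (29.7%), before 3 of 13 ranked lower genes (23.1%) and before 4804 of 16992 tested genes (28.3%). The share among the ranked higher genes was thus near that of all genes. Both called genes hold 1 match, as do *CML38* and *PR5*, which are shown as examples of a calcium and an SA output gene, with each match in capitals and each sequence read in the direction of its gene. They lie at chr5:19726422-19726671 (plus strand), chr4:10724564-10724813 (plus), chr1:28768139-28768388 (minus) and chr1:28177420-28177669 (plus). A match is a run of letters and not a measured binding site.

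*AtG3BP1* upstream: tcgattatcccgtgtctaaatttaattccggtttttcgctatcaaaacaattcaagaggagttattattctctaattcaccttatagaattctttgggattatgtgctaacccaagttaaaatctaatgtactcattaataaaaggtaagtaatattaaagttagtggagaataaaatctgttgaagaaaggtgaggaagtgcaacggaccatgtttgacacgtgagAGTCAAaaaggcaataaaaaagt
*AK-HSDH II* upstream: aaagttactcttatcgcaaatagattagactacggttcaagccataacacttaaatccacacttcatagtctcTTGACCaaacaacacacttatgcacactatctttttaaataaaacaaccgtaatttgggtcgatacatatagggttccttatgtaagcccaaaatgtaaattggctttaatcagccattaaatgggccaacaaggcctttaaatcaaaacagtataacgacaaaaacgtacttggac
*CML38* upstream: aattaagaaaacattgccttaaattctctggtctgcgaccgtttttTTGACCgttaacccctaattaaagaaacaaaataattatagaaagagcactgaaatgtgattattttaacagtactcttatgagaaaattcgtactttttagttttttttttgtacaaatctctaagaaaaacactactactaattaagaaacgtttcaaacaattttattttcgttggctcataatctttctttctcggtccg
*PR5* upstream: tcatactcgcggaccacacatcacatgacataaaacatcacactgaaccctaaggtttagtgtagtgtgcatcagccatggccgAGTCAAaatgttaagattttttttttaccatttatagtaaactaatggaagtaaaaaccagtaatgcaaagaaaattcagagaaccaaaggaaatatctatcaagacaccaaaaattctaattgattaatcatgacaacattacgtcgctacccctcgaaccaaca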

How the data were processed

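The authors made RNA-seq libraries from whole seedlings, trimmed the reads (Trimmomatic), mapped them on TAIR10 (TopHat) and deposited 1 table of FPKM per gene and library calculated with Cufflinks, and compared groups with Cuffdiff. FPKM correct for transcript length and sequencing depth. The low values were not clear multiples of a step, so no count test was run and depth is unknown. No column of the table lacks a sample. Library totals ran between 428556 and 494126 FPKM.

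Each library was divided by its 75th percentile over expressed genes, relative to the geometric mean of these percentiles. Of the 27371 listed genes, 17158 had a mean of at least 1 FPKM over the 12 libraries. For these, log2(FPKM + 1) was fitted with limma 3.58.1 in R 4.3.3 (4 groups, empirical Bayes with a trend on the mean, two-sided tests), and the contrasts were the difference between the labels after *Pst hrcC-*, in mock, and the interaction, with Benjamini-Hochberg adjustment inside each contrast. Group overlap was read from deposited FPKM. Names and positions came from the RefSeq annotation of TAIR10.1, which matched 26703 identifiers. Tables and figures were made with Python 3.11.15 and matplotlib 3.10.9. The fit was tested on simulated data.

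Genes were named if they were called, if they were among the 12 higher or 12 lower genes with the smallest p among those at 2-fold, an unadjusted p of at most 0.05 and no overlap between the labels, if they were list members at 2-fold and that p (otherwise the member with the smallest p), or if they belonged to the AtG3BP family, the study's own SA and immunity genes or the neighbours of called genes. Other names were picked after their values had been seen. The gene lists and tests were chosen with earlier results of these data known. Alternatives covered the scaling, pseudocount, filter, variance trend, replicate block, the hrcC libraries alone and each library left out.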

Additional observations from a re-analysis of the deposited data

Results flagged for a closer look

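*CDEF1* (AT4G30140), a cutinase-type GDSL lipase gene, had non-overlapping libraries in opposite directions in the 2 treatments. After *Pst hrcC-* it had 3.24, 6.58 and 9.57 FPKM in the libraries labelled *Atg3bp1* and 13.6, 12.1 and 21.1 FPKM in those labelled WT, a log2 fold change of -1.07 (SE 0.35, adjusted p = 0.877 in limma). In mock it had 19.4, 22.8 and 11.5 FPKM under the label *Atg3bp1* and 6.62, 6.2 and 9.82 FPKM under the label WT, a log2 fold change of 1.24 (adjusted p = 0.0884). The interaction was -2.31 (SE 0.50), which did not pass the limma test over all genes (adjusted p = 0.991).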

How the results depend on the processing

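*AtG3BP1* kept its direction and its call in all 23 alternatives, with log2 fold changes from 3.59 to 5.22, and *AK-HSDH II* kept its direction in 22, from -2.28 to -1.65, and its call in 19. The exceptions left out 1 library each, and over all such fits its values lay between -1.77 and -1.65. With 1 higher and 1 lower gene called, the counts were 2 higher with the hrcC libraries alone (*HEI10* added) and 0 lower with a mean of at least 5 FPKM, which removes *AK-HSDH II*. With 1 library left out they ran from 1 to 4 higher and from 0 to 2 lower, and each gene added, *HEI10*, *AT1G09640*, *PAP85*, *EARLI1*, *AT4G33467*, *FTM1*, *AT1G25400*, *NIA1* or *AT4G25670*, was called in no more than 2 settings. At 2-fold and an unadjusted p of 0.05, the 96 higher and 16 lower genes became 59 and 31 without rescaling, where the overall median became -0.151, and 145 and 56 with a pseudocount of 0.1. Lower genes were 28 with a pseudocount of 0.5, and 50 higher and 9 lower passed with a mean of at least 5 FPKM. Leaving out 1 library gave 68 to 205 higher and 14 to 46 lower. The replicate block changed no call, with 1 and 1 genes called and 101 higher and 17 lower at the unadjusted threshold, and 26 lower with a replicate block within each treatment. Deviations of same-numbered libraries from the group means correlated at 0.04, 0.43 and 0.10 after bacteria and at 0.37, 0.10 and 0.31 in mock, so the numbers were not taken as pairs. No direction of the 24 genes followed through the alternatives reversed. These genes had been picked for a 2-fold difference without overlap, so a reversal was hardly possible and its absence says little. The cause of these shifts was not tested, and unknown depth limits what can be said of genes near 0.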
